A study of Mus musculus with 18 samples.

Results

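The third day of differentiation of mESCs is described by comparing 3 libraries collected on day 3 with 3 libraries collected on day 2, which are 6 of the 18 RNA-seq libraries of the study. The libraries were chosen by their labels alone. All 6 come from ESCs of the mouse line E14 with the genotype Rex1GFPd2-Cas9, which carry a GFP reporter of the naive marker gene *Rex1* (*Zfp42* in the files) and the Cas9 nuclease, and they differ in the day of collection only. The labels name no knockout and no sort for them. By the methods the line is kept on feeder cells in serum and LIF, and differentiation is induced in supplemented NDif227 medium that lacks LIF and the inhibitors of naive culture. The methods do not say this of the RNA-seq time course in particular. The study followed how mESCs leave naive pluripotency, and its time course also holds 3 libraries each of day 0 and day 1. A further 6 libraries of sorted GFP+ cells were not used here.

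Naive mESCs resemble the epiblast before implantation and are held in that state by a network of transcription factors that includes Nanog, Esrrb and Klf4. When that network is dismantled, cells pass through a formative state, marked by genes such as *Fgf5*, *Otx2* and *Pou3f1*, before they take up neural or mesendodermal fates. Cells in culture do not do this in step, and in RNA from a whole culture fewer cells of a type and less RNA per cell cannot be told apart.

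The total of estimated counts lay between 12728661 and 13525384 in the day 2 libraries and between 12987282 and 14620653 in the day 3 libraries. A gene with no count could still be present at up to 3 counts, here 0.205 to 0.236 CPM, the count scaled to a common library total, for counting error only. CPM values use library totals scaled by TMM. Of 24296 genes, 14382 passed the filter of edgeR on low counts and were tested in 1 fit of the 12 time-course libraries. Calls were made at 0.05 on the Benjamini-Hochberg adjusted p of the quasi-likelihood test in edgeR. The labels number the replicates but do not say whether they are separate cultures, so that p values measure the spread between these samples, which may be technical.

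The libraries of each day lay apart from those of every other day on the first 2 principal components, which held 64.0% and 23.4% of the variance. Within days, the libraries were not equal. Replicate 3 of day 2 lay nearer to day 3 than its companions on the first component, at 59.7 against 47.5 and 45.8, where the day 3 libraries lay between 75.5 and 81.8. Among genes that rose on the third day, it was the highest day 2 library in 73.7% (all genes tested, 37.7%), and among genes that fell it was the lowest in 69.0% (36.8%). Replicate 1 of day 3 was the highest day 3 library in 57.9% of the genes that rose (37.1%). Replicate 2 of day 3 was the lowest day 3 library in 54.3% of the genes that rose (31.7%). Among genes that fell it was the highest in 53.5% (30.5%). What sets these libraries apart was not tested, and the counts below are also given without single libraries where that matters. Some are given without replicate 3 of day 2 and replicate 1 of day 3 together, with replicate 2 of day 3 kept.

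**Figure D1:**
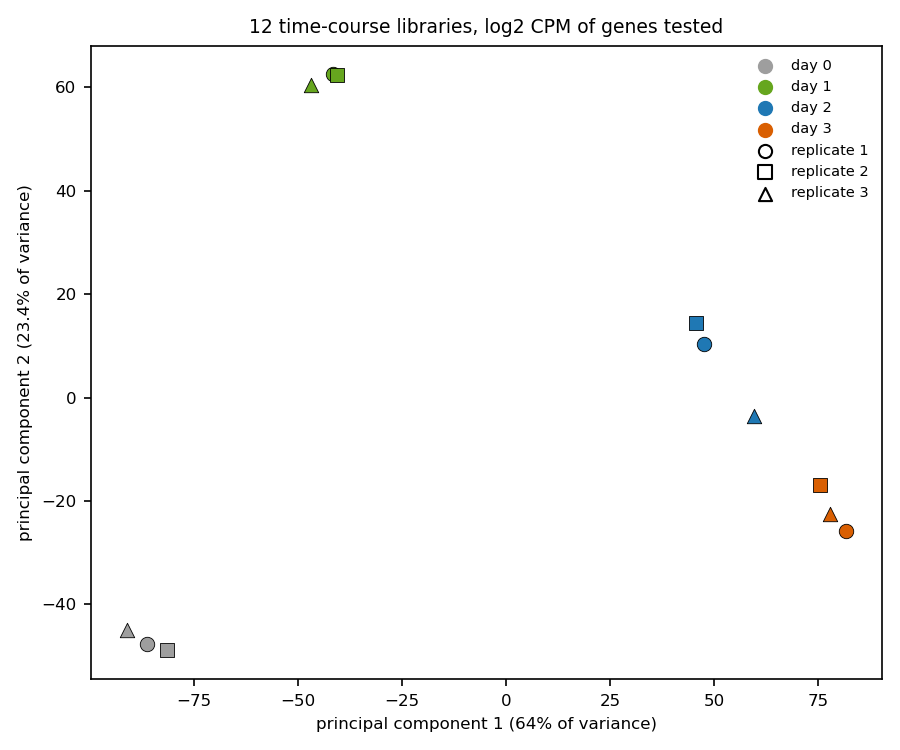
Each point is a library of the time course, placed by principal components 1 and 2 of the log2 CPM of the 14382 genes tested. Colours stand for days and shapes for replicate numbers, and replicate 3 of day 2 lies between the other day 2 libraries and those of day 3.

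On the third day 4525 genes were called, 31.5% of those tested, 2280 of them higher (15.9%) and 2245 lower (15.6%) on day 3 than on day 2. The changes were fewer and smaller than on the days before. In the same fit 8931 genes (62.1%) were called between day 1 and day 2 and 8754 (60.9%) between day 0 and day 1, and over all genes tested log2 fold changes had an SD of 0.60 on the third day, 1.08 on the second and 1.12 on the first. The third-day change differed from the first-day change in 57.7% of genes, with 27.9% higher and 29.8% lower. At least 2-fold changes were called in 353 genes that rose (2.45%) and 564 that fell (3.92%). The count of 4525 was 2969 without replicate 2 of day 2 and 4125 without both replicate 3 of day 2 and replicate 1 of day 3. With limma on log2(TPM + 1) the same comparison gave 2637 genes higher and 1760 lower, so the balance of directions depends on the scale. The libraries of day 2 and day 3 did not overlap in 43.3% of all genes tested.

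The third day had no libraries in common with the first day, and the genes that moved on both were counted. Of the genes that rose on the third day, 47.9% had fallen on the first day and 20.7% had risen on it, where 30.8% of all genes tested fell and 30.1% rose on the first day. Of the genes that fell on the third day, 49.2% had risen on the first day and 17.6% had fallen. The 1093 genes that fell first and rose on the third day were 24.7% of all first-day falls, and the 1105 genes that rose first and fell on the third day were 25.5% of all first-day rises.

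The 15 largest falls held several germline genes and several zinc finger genes. *Hormad1*, which encodes a protein of the meiotic chromosome axis, had the largest fall of any gene that met the rule for naming. It was at 9.03, 12.9 and 5.37 CPM in the day 2 libraries and at 0.883, 0.796 and 0.527 CPM in the day 3 libraries. The days did not overlap, and the log2 fold change was -3.61 (adjusted p = 3.4e-04 by edgeR, SE 0.48). *Sycp1*, a component of the synaptonemal complex that joins paired chromosomes in meiosis, was at 4.32, 5.17 and 3.04 CPM on day 2 and at 0.475, 0.941 and 0.226 CPM on day 3, a log2 fold change of -2.90 (adjusted p = 6.1e-06 by edgeR, SE 0.34). *Taf7l*, a germ cell paralogue of a general transcription factor subunit, was at 13.5, 15.1 and 9.66 CPM on day 2 and at 1.43, 2.61 and 1.73 CPM on day 3, a log2 fold change of -2.73 (adjusted p = 1.8e-07 by edgeR, SE 0.23). In *Hormad1*, *Sycp1* and *Taf7l* replicate 3 of day 2 was the lowest library of its day and still above all of day 3.

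The list of 2-cell-like and germline genes held 20 genes, of which 14 passed the filter on low counts. By edgeR 13 of them were lower on day 3 and 0 were higher (also 0 at an unadjusted p under 0.05 and 0 with DESeq2), where 15.6% of all genes tested were lower. The median log2 fold change was -2.0, and that of all genes was -0.01. Without both replicate 3 of day 2 and replicate 1 of day 3, 11 were lower. *Mael* and *Ddx4*, which act in the silencing of transposons and in germ cell RNA granules, fell by log2 values of 2.13 and 1.52. Both had their highest mean of the time course on day 2, although that of *Mael* was not called different from day 1 (adjusted p = 0.244, edgeR). *Mael* was at 39.8, 38.5 and 35.6 CPM on day 2 and at 8.01, 10.8 and 7.23 CPM on day 3. *Ddx4* was at 32, 33.1 and 35.4 CPM on day 2 and at 10.6, 11.9 and 12.5 CPM on day 3. *Dazl*, *Tuba3a* and *Rpl10l* had lost most of their RNA on the second day already and fell again by log2 values of 2.11, 2.01 and 2.49. *Sycp3* changed least among those called, with a log2 fold change of -0.38 (adjusted p = 0.0177 by edgeR, SE 0.12), and its adjusted p was 0.0982 without replicate 3 of day 2 and 0.0928 without replicate 3 of day 3. Of the *Zscan4* genes of the 2-cell stage, *Zscan4c*, *Zscan4d* and *Zscan4f* were called lower, with log2 fold changes of -1.82, -1.24 and -1.20. Without replicate 2 of day 2 the adjusted p of *Zscan4d* and *Zscan4f* was 0.0544 and 0.0527 by edgeR, and without replicate 1 of day 3 that of *Zscan4f* was 0.0593. They are near-identical copies between which kallisto divides reads, so their single values are uncertain, and *Usp17la*, of another such family, was not called (log2 fold change -0.44, adjusted p = 0.241, edgeR).

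**Figure D2:**
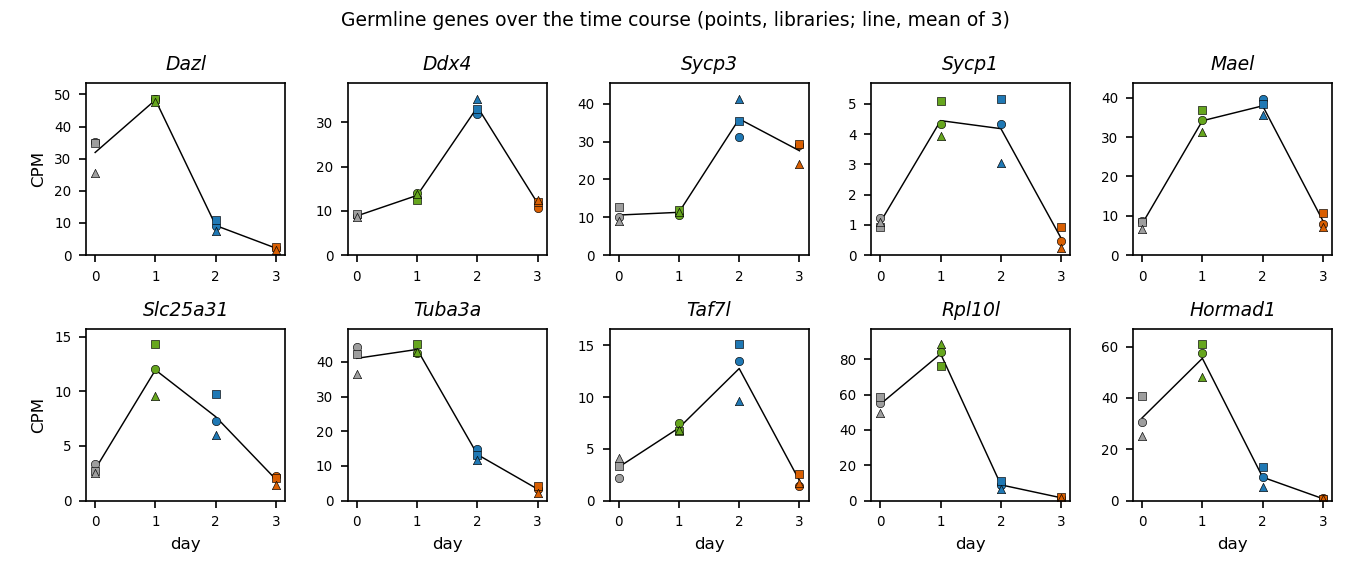
CPM of 10 germline genes that were lower on day 3 than on day 2, in the 3 libraries of each day (points, with the replicate shapes and day colours of the plot of libraries) and as their mean (line). The means of *Ddx4*, *Sycp3*, *Taf7l* and *Mael* were highest on day 2, and *Dazl*, *Tuba3a*, *Rpl10l* and *Hormad1* fell steeply on the second day and again on the third.

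The windows around the starts of these genes, from 250 bases before to 50 after, were read from RefSeq annotation of GRCm38.p6 and searched for the E-box CACGTG, which reads the same on both strands. All 13 genes that were lower had an entry, and 7 held the motif, *Hormad1*, *Taf7l*, *Ddx4*, *Sycp1*, *Sycp3*, *Mael* and *Slc25a31*. Of the 15 largest falls 13 had an entry and 3 held it, *Hormad1*, *Taf7l* and *Dnmt3l*, and of the 15 largest rises 11 had an entry and 2 held it. Among the genes tested 11.6% of those with an entry held it, and among all 32851 windows 7.15% did. A match is a description of the letters and not of a bound site. The windows of 4 germline genes with the motif, *Hormad1*, *Taf7l*, *Sycp1* and *Ddx4*, are shown because their values are described above. They were chosen after the values were seen, run 5′ to 3′ on the strand of the gene, and carry the E-box in capitals. *Hormad1* lies at chr3:95559427-95559726 on the plus strand, *Taf7l* at chrX:134476441-134476740 on the minus strand, *Sycp1* at chr3:102936051-102936350 on the minus strand and *Ddx4* at chr13:112652261-112652560 on the minus strand. The 2 E-boxes of *Hormad1* begin 57 and 20 bases before the start of the gene, and those of *Taf7l*, *Ddx4* and *Sycp1* begin 49, 29 and 94 bases before it.
Hormad1: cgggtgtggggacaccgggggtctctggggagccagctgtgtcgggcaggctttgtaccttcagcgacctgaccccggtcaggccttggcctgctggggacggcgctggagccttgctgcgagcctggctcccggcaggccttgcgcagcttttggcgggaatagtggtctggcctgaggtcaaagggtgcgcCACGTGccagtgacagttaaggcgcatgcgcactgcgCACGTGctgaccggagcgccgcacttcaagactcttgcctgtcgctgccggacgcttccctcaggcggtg
Taf7l: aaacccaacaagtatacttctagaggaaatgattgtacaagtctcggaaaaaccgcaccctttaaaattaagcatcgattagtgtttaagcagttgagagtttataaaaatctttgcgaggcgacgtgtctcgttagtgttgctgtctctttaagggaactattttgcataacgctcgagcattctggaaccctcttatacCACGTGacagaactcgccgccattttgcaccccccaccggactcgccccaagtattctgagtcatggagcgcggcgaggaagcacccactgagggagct
Sycp1: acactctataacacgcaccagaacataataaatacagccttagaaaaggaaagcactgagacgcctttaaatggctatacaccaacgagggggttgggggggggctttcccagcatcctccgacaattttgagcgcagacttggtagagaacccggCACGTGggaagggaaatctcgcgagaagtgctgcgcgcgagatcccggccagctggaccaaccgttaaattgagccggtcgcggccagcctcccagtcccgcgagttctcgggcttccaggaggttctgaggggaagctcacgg
Ddx4: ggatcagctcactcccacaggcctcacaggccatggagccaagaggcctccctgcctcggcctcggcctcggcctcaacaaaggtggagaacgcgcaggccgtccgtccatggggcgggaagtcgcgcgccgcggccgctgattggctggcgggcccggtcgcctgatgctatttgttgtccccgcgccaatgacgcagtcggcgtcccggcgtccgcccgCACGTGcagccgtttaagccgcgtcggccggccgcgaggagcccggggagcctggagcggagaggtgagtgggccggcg

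The 15 largest falls also held germline genes outside the list. *Sohlh2* and *Terb2*, which serve germ cell development and meiotic telomere attachment, had log2 fold changes of -2.86 and -2.42. *Morc1*, needed to silence transposons in male germ cells, was at 11.4, 13.5 and 6 CPM on day 2 and at 1.22, 1.88 and 0.828 CPM on day 3, a log2 fold change of -2.96 (adjusted p = 1.0e-04 by edgeR, SE 0.34). The remaining germline genes in the ranking, *Taf7l*, *Rpl10l* and *Hormad1*, are described above. The zinc finger genes *Zfp600*, *Zfp936* and *Zfp981* fell by log2 values of 2.99, 2.98 and 2.49. *Zfp600* was at 78.6, 89.0 and 40.1 CPM on day 2 and at 7.47, 8.98 and 9.79 CPM on day 3. These genes and *Gm10324*, *2410141K09Rik* and *EU599041*, which fell with them, belong to or resemble families of similar copies, and their single values carry the uncertainty of shared reads. *Nlrp4f*, expressed in oocytes, had a log2 fold change of -2.60. *Inpp5d*, which encodes the lipid phosphatase Ship1, was at 112.1, 114.5 and 81.1 CPM on day 2 and at 10.7, 17.7 and 15.5 CPM on day 3, and its third-day fall was larger than its second-day fall (difference of log2 fold changes -1.87, adjusted p = 5.4e-04, edgeR).

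*Dnmt3l*, a cofactor of the de novo DNA methyltransferases, was among the 15 largest falls. It was at 51.9, 55.0 and 30.9 CPM on day 2 and at 5.36, 9.34 and 5.50 CPM on day 3, a log2 fold change of -2.77 (adjusted p = 9.6e-05 by edgeR, SE 0.27). The days did not overlap, and the day 1 libraries had held between 558.3 and 623.5 CPM. In the list of DNA methylation and demethylation genes 4 of 14 tested were lower (all genes tested, 15.6%), *Dnmt3l*, *Dnmt3a*, *Tet1* and *Gadd45g*, and 1 was higher, *Gadd45b*. The methyltransferase gene *Dnmt3a* fell by 0.71 on the log2 scale and the dioxygenase gene *Tet1*, whose enzyme oxidises methylated cytosine, by 0.70. The call of *Tet1* was lost without replicate 1 or 2 of day 2 or replicate 1 or 3 of day 3, with adjusted p of 0.0643, 0.0728, 0.0794 and 0.0554 by edgeR. *Dnmt3b* was at 3009, 3050 and 2531 CPM on day 2 and at 2069, 2596 and 2222 CPM on day 3, with overlapping days (adjusted p = 0.0652, edgeR). *Dnmt1* and *Uhrf1*, of maintenance methylation, had log2 fold changes of 0.02 and 0.00. Among Polycomb genes 9 of 24 tested were lower (again against 15.6%), with *Bmi1*, of complex PRC1, at -0.74 and *Mtf2*, which recruits PRC2, at -0.63 on the log2 scale. The list held 3 genes that were higher, and 1 without replicate 2 of day 2 or without replicate 1 of day 3. *Ezh2*, the catalytic subunit of PRC2, had a log2 fold change of -0.01 and was not called.

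**Figure D3:**
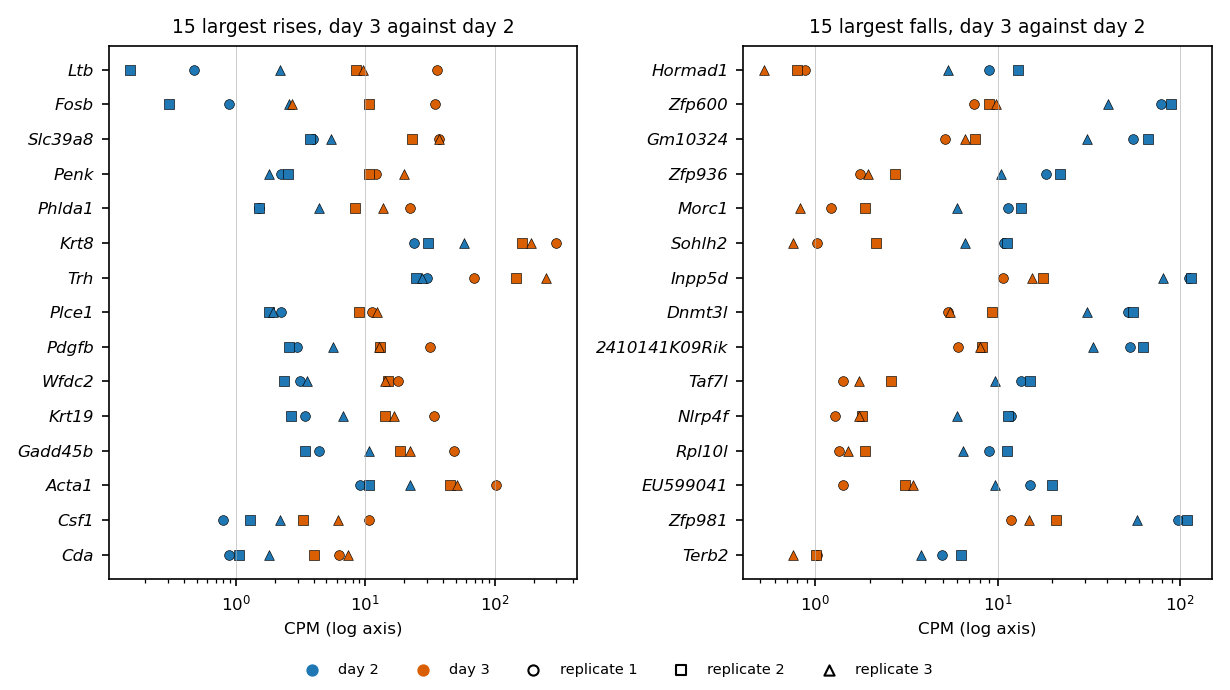
CPM on a log axis of the 15 genes with the largest rises and the 15 with the largest falls between day 2 and day 3, among genes called by edgeR whose log2 CPM averaged 1 or more and whose days did not overlap. Blue points are day 2 libraries and orange points day 3 libraries, with shapes for replicate numbers. In all 15 falls the lowest day 2 library was replicate 3, and in 10 of the 15 rises the highest day 3 library was replicate 1. Replicate 2 was the lowest day 3 library in 11 of the 15 rises and the highest in 11 of the 15 falls.

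Of 20 naive pluripotency genes tested 10 were lower, 1, *Nanog*, was higher and 9 were not called (all genes tested, 15.6% lower and 15.9% higher), with a median log2 fold change of -0.98, which was -0.37 with limma on log2(TPM + 1). The count of 10 was between 7 and 8 when any library of day 2 or day 3 was left out. It was 7 without both replicate 3 of day 2 and replicate 1 of day 3. *Zfp42*, the gene of the reporter, was at 20, 23.3 and 17.7 CPM on day 2 and at 11.1, 12.8 and 9.64 CPM on day 3, a log2 fold change of -0.86 (adjusted p = 7.6e-05 by edgeR, SE 0.12). *Esrrb* fell from between 5.45 and 7.98 CPM to between 2.48 and 3.39 CPM, a log2 fold change of -1.12. Both had lost far more on the second day, with log2 fold changes of -2.91 and -3.55, and the difference between days was itself called in both genes (adjusted p = 8.1e-07 and 3.3e-06, edgeR). *Tdh*, a threonine dehydrogenase of mESCs, and *Pecam1*, a surface adhesion molecule, each fell on every day of the time course, on the third day by log2 values of 2.10 and 2.06. *Klf4*, *Klf5*, *Tbx3* and *Tfcp2l1* were not called and had log2 fold changes between -0.30 and 0.37. Several naive genes were close to the limit of detection by day 2, such as *Tcl1*, *Dppa3* and *Nr5a2*, at up to 0.959 CPM. *Nr5a2* counts among the 10 genes called lower. Its adjusted p lay between 0.0522 and 0.16 by edgeR without replicate 1 or 2 of day 2 or without any 1 library of day 3.

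*Nanog* was at 37.7, 30.6 and 47.6 CPM on day 2 and at 101.2, 119.1 and 171.0 CPM on day 3. All day 3 libraries were above all day 2 libraries, and the log2 fold change was 1.75 (adjusted p = 3.0e-04 by edgeR, SE 0.21). The second-day change was 0.68 in log2 units after a fall of 5.15 on the first day, and the day 3 level remained under the day 0 level, where the libraries lay between 810.2 and 926.7 CPM. Among 14 general pluripotency genes 6 were lower (all genes tested, 15.6%) and 0 were higher by edgeR (0 higher at an unadjusted p under 0.05 and 0 with DESeq2), with a median of -0.25. *Pou5f1* was at 955.3, 929.4 and 836.4 CPM on day 2 and at 674.5, 856.3 and 737.0 CPM on day 3, with overlapping days (log2 fold change -0.26, SE 0.07, adjusted p = 0.0108, edgeR), and its adjusted p was 0.0588 without replicate 1 of day 2 and 0.0806 without replicate 1 of day 3. *Sox2* had a log2 fold change of -0.15 (adjusted p = 0.143 by edgeR, SE 0.08) after -1.60 on the second day. *Dppa2*, which acts with *Dppa4* at developmental promoters, had the largest fall of the list, from 67.4, 71.6 and 45.0 CPM to 4.96, 19.5 and 10.3 CPM.

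More formative genes were lower than higher. Of 19 tested 6 were lower, 2 were higher and 11 were not called, with a median log2 fold change of -0.06. Over all genes tested 15.6% were lower, 15.9% were higher and 9857 of 14382 were not called, the last a larger share. *Fgf5*, a ligand of the formative epiblast, was at 74.1, 84.3 and 63.5 CPM on day 2 and at 74.4, 81.5 and 83.7 CPM on day 3, with overlapping days (log2 fold change 0.11, SE 0.09, adjusted p = 0.402, edgeR). *Otx2* had a log2 fold change of 0.03 (adjusted p = 0.887 by edgeR, SE 0.13). The POU factor gene *Pou3f1* was lower on day 3, at 201.8, 244.2 and 218.7 CPM against 379.2, 422.9 and 339.6 CPM on day 2, a log2 fold change of -0.78 (adjusted p = 2.2e-06 by edgeR, SE 0.08). Its second-day change was 0.08, and the difference between the days was called (adjusted p = 1.0e-04, edgeR). *Lef1*, *Etv4* and *Etv5*, transcription factor genes that respond to Wnt or ERK signals, were lower by log2 values of 0.70, 0.97 and 0.54. The call of *Etv4* was lost without replicate 1 or 2 of day 2 or replicate 1 of day 3, with adjusted p of 0.0507, 0.0526 and 0.0634 by edgeR.

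**Figure D4:**
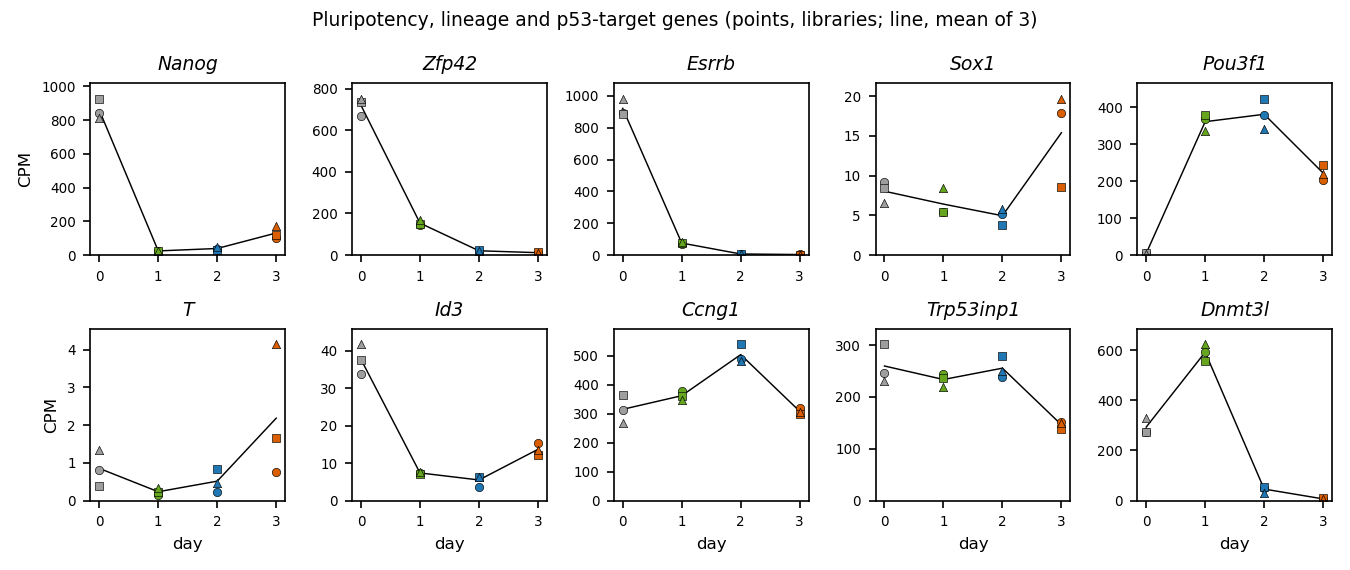
CPM of 10 genes over the 4 days, as single libraries (points, with the colours and shapes of the plot of libraries) and as the mean of 3 (line). *Nanog*, *Sox1* and *Id3* rose between day 2 and day 3, *T* rose with overlapping libraries, and *Pou3f1*, *Ccng1*, *Trp53inp1*, *Dnmt3l*, *Zfp42* and *Esrrb* fell.

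More early neural genes were higher than lower. Of 34 genes listed, 25 passed the filter. Of these 10 were higher (all genes tested, 15.9%) and 4 were lower, a share near that of all genes tested (15.6%). The median log2 fold change was 0.10. It lay between -0.02 without replicate 3 and 0.42 without replicate 2 of day 3, and was 0.51 with at least 10 counts in every library. *Sox1*, the earliest definitive marker of neurectoderm, was at 5.20, 3.80 and 5.84 CPM on day 2 and at 17.9, 8.61 and 19.7 CPM on day 3, a log2 fold change of 1.64 (adjusted p = 0.00158 by edgeR, SE 0.30). It had not been called on either day before, and its third-day change differed from its second-day change (adjusted p = 0.0156, edgeR), as did that of 33.0% of all genes tested. *Nes* and *Msi1*, which encode an intermediate filament and an RNA-binding protein of neural progenitors, rose by log2 values of 0.95 and 1.00 after larger rises of 3.70 and 2.48 on the second day. *Zfp521*, a zinc finger factor that promotes neural conversion, was at 3.12, 3.19 and 4.05 CPM on day 2 and at 15.5, 9.92 and 14.3 CPM on day 3 (log2 fold change 1.94, SE 0.20, adjusted p = 1.6e-06, edgeR). *Pax6* was at 1.92, 2.13 and 2.34 CPM on day 2 and at 2.04, 2.17 and 1.66 CPM on day 3 and was not called. Among the genes that fell, *Dlk1*, *En2* and *Pax8* were at or under 4.79 CPM on day 2. *Dlk1* and *En2* were called lower without replicate 1 and without replicate 3 of day 3, while *Pax8* was not (adjusted p = 0.0592 and 0.0505, edgeR), and 2 genes of the list were lower when either of these libraries was left out. Neuronal genes were also present, with 4 of 11 tested higher. *Tubb3*, a tubulin of neurons, rose by 0.45 and *Stmn2*, of growth cones, by 0.99 in log2 units, and *Neurod1* was called lower with -1.33.

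Genes of the primitive streak were low. *T*, the mesoderm factor Brachyury, was at 0.240, 0.836 and 0.467 CPM on day 2 and at 0.747, 1.66 and 4.14 CPM on day 3, with overlapping days (log2 fold change 2.04, SE 0.61, adjusted p = 0.0203, edgeR). *Fgf8* was at 0.560, 1.06 and 1.40 CPM on day 2 and at 2.31, 4.20 and 7.38 CPM on day 3, and *Nkx1-2*, of the caudal epiblast, was at 1.83, 5.28 and 10.6 CPM on day 3. In all 3 genes replicate 3 of day 3 was the highest library and replicate 1 the lowest. Of 21 genes listed for the streak, 13 passed the filter and 4 were higher (all genes tested, 15.9%), the fourth being *Foxa2*, and 1, *Fgf8*, was higher without replicate 1 of day 2. *T* had an adjusted p of 0.0794 without that library, 0.0560 without replicate 3 of day 2 and 0.118 without replicate 3 of day 3 by edgeR, and *Nkx1-2* had 0.0593 and 0.0513 without the same libraries of day 2. *Foxa2* was lost without replicate 1 or 2 of day 2 or replicate 1 of day 3, with 0.0530, 0.0805 and 0.108. *Eomes* and *Mixl1* were not called, and *Gsc* and *Mesp1* were at 3 counts or fewer in all 6 libraries.

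Signals that pattern the epiblast were compared by pathway, and the counts are to be read against 15.9% of all genes tested that were higher and 15.6% that were lower. In the BMP list 6 of 18 tested were higher and 0 lower by edgeR (1 lower at an unadjusted p under 0.05, 0 with DESeq2). *Id1* and *Id3*, inhibitors of helix-loop-helix factors and common readouts of BMP signals, rose by log2 values of 1.17 and 1.31. Of the same list, *Id2*, *Id4*, *Msx1*, *Msx2* and *Bambi* were not called. *Id3* was at 3.76, 6.38 and 6.39 CPM on day 2 and at 15.4, 12.1 and 13.6 CPM on day 3. The ligand genes *Bmp2* and *Bmp7* and the inhibitor gene *Smad6* were also higher, the last not without replicate 2 of day 2 or replicate 1 of day 3 (adjusted p = 0.0922 and 0.0743, edgeR). The log2 fold change of *Bmp2* was 1.96, and 0.51 with limma on log2(TPM + 1). In the retinoic acid list 4 of 13 tested were higher and 1, the receptor gene *Rarg*, was lower. Without replicate 1 of day 3, 2 were higher and 2 lower, and without replicate 2 of day 3, 2 were lower. The genes called higher were *Cyp26a1*, which encodes the enzyme that degrades retinoic acid, *Rarb* and *Rara*, receptor genes, and *Dhrs3*, with log2 fold changes of 2.06, 1.52, 0.24 and 1.22. *Cyp26a1* was at no more than 2.38 CPM in any day 3 library. Without replicate 1 of day 3 the adjusted p was 0.0554 for *Cyp26a1* and 0.0766 for *Rarb* by edgeR. *Rarb* was also lost without replicate 2 of day 2 (0.0844), and *Rara* without replicate 1 of day 2 (0.0665) or replicate 3 of day 3 (0.0792). Among Wnt genes 5 of 22 were higher, and 1 was lower, *Lef1*. Those higher were the feedback gene *Axin2*, at 0.73 on the log2 scale, *Tcf7l1*, *Nkd1*, *Sfrp1* and *Sfrp2*. Genes not called included *Sp5*, *Tcf7*, *Lgr5*, *Notum*, *Rnf43*, *Znrf3*, *Ccnd1* and *Cdx1*. Leaving out replicate 2 of day 3 gave 9 higher Wnt genes. Of 16 Nodal genes 6 were higher and 1 was lower, the ligand gene *Gdf3* (-0.90), where 2 were higher without replicate 1 of day 2 and 3 were lower without replicate 3 of day 2. In the Notch list the ligand gene *Dll1* fell from 34.2, 37.8 and 21.9 CPM to 9.71, 10.7 and 8.96 CPM (log2 fold change -1.68, SE 0.22, adjusted p = 1.5e-04, edgeR), while the targets *Hes1* and *Hey1* each rose by 1.06 in log2 units. Of 14 Notch genes tested 3 were higher and 4 lower, and 2 were lower without replicate 2 or 3 of day 2 or without replicate 2 or 3 of day 3. Among 24 Fgf and ERK genes 4 were higher and 5 lower, shares near those of all genes tested. The naive ligand gene *Fgf4* fell by 1.40 and *Dusp4* by 0.62, and *Phlda1* rose by 2.58.

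Of 19 p53 targets tested 13 were lower (all genes tested, 15.6%), 6 were not called and 0 were higher by edgeR (also 0 at an unadjusted p under 0.05 and 0 with DESeq2), with a median log2 fold change of -0.45, and between 12 and 13 were lower when any library of day 2 or day 3 was left out. *Ccng1*, a cyclin gene induced by p53, was at 490.2, 539.5 and 481.2 CPM on day 2 and at 318.0, 299.5 and 307.0 CPM on day 3, a log2 fold change of -0.71 (adjusted p = 1.2e-05 by edgeR, SE 0.08). *Trp53inp1*, which encodes a nuclear partner of p53, was at 238.4, 278.8 and 249.5 CPM on day 2 and at 151.7, 138.3 and 149.0 CPM on day 3, a log2 fold change of -0.80 (adjusted p = 5.2e-06 by edgeR, SE 0.09). The days did not overlap in either gene, and in both the third-day change was lower than the second-day change (adjusted p = 7.1e-06 and 1.2e-04, edgeR). *Mdm2*, whose product degrades p53, fell by 0.61, the apoptosis gene *Pmaip1* by 0.57 and *Bax* by 0.34 in log2 units. *Cdkn1a*, which encodes the Cdk inhibitor p21, was at 41.4, 42.2 and 58.8 CPM on day 2 and at 42.0, 39.3 and 47.7 CPM on day 3, and was not called (adjusted p = 0.561, edgeR). On the second day 11 genes of the list had been called higher and 4 lower, where 32.5% and 29.6% of all genes tested were. Among the Cdk inhibitors, *Cdkn1b* (p27) rose by 0.60, and *Cdkn2a* fell by 1.16 in log2 units. *Cdkn2d* was also called higher, and *Cdkn1c*, *Cdkn2b* and *Cdkn2c* were not called. Of 15 G1 cyclin and Cdk inhibitor genes tested 3 were higher and 2 lower, shares near those of all genes tested (15.9% and 15.6%). Without replicate 2 of day 2 or without replicate 1 of day 3, 1 was lower.

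Keratin and actin genes were among the genes that rose most. *Krt8* was at 23.8, 30.8 and 58.0 CPM on day 2 and at 298.4, 161.4 and 191.0 CPM on day 3, a log2 fold change of 2.53 (adjusted p = 9.6e-04 by edgeR, SE 0.35). *Krt18*, its partner in simple epithelia, and *Krt19* rose by log2 values of 1.47 and 2.34. *Acta1*, the actin gene of skeletal muscle, was at 9.11, 10.6 and 22.2 CPM on day 2 and at 102.0, 45.2 and 51.2 CPM on day 3 (log2 fold change 2.24, SE 0.40, adjusted p = 0.00352, edgeR). *Actc1* of cardiac muscle, *Acta2* of smooth muscle and *Tagln*, which encodes an actin-binding protein, rose by log2 values of 1.76, 1.82 and 2.05. In each of *Krt8*, *Krt18*, *Krt19*, *Acta1*, *Acta2*, *Actc1* and *Tagln* replicate 3 of day 2 was the highest day 2 library and replicate 1 of day 3 the highest day 3 library. *Acta2* and *Tagln* also stand in the list of feeder fibroblasts, where 4 of 13 tested were higher (all genes tested, 15.9%), and 2 without replicate 2 of day 2, the others being *Col5a1* and *Thy1*, and 0 were lower by edgeR (1 at an unadjusted p under 0.05 and 0 with DESeq2). The 6 defining fibroblast markers summed to between 11.5 and 14.8 CPM on day 2 and to between 11.6 and 14.5 CPM on day 3, 0 of the 5 tested were called by edgeR (1 at an unadjusted p under 0.05 and 0 with DESeq2), and *Postn* and *Lum* were at 3 counts or fewer in all 6 libraries.

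The promoter windows of *Acta1* and *Actc1* held a CArG box, the element bound by serum response factor, which was found in 1.58% of the genes tested and in 1.63% of all windows. Of the 11 largest rises with an entry, *Acta1* alone held it. Both windows are shown 5′ to 3′ on the strand of the gene, with the CArG box in capitals, because muscle actin genes were among the largest rises. They are from RefSeq on GRCm38.p6, at chr8:123894726-123895025 for *Acta1* and at chr2:114052826-114053125 for *Actc1*, both on the minus strand, and the motif begins 73 and 47 bases before the start of the gene.
Acta1: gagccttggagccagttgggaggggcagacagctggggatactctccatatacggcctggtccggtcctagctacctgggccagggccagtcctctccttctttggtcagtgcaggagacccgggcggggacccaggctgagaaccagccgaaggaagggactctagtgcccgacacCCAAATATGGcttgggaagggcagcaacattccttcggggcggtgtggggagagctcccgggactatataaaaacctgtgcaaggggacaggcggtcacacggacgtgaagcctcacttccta
Actc1: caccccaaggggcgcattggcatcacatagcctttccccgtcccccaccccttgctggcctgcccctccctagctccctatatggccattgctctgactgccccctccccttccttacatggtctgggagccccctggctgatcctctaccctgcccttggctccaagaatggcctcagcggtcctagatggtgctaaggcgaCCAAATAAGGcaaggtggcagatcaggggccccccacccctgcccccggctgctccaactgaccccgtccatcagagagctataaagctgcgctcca

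Immediate early genes, which respond within minutes to growth signals and to cell dissociation, were higher in 6 of 15 tested (all genes tested, 15.9%) and lower in 0 by edgeR (0 lower at an unadjusted p under 0.05 and 0 with DESeq2). *Fosb* was at 0.880, 0.304 and 2.57 CPM on day 2 and at 34.4, 10.7 and 2.71 CPM on day 3, so that 1 library of day 3 was barely above replicate 3 of day 2 (log2 fold change 3.68, SE 0.97, adjusted p = 0.0206, edgeR). *Fos* was at 2.96, 2.36 and 10.9 CPM on day 2 and at 53.2, 21.4 and 7 CPM on day 3, with overlapping days (adjusted p = 0.0526, edgeR). The count of 6 fell to 2 without replicate 1 or without replicate 2 of day 2, fell to 3 without replicate 1 of day 3 and rose to 9 without replicate 3 of day 2. *Junb*, *Atf3*, *Egr2*, *Zfp36* and *Ier2* were the other genes called, and in each of these 5 genes, as in the keratins, replicate 3 was the highest day 2 library and replicate 1 the highest day 3 library. The days overlapped in *Egr2*, *Zfp36* and *Ier2*, and the calls of these 3 were lost without replicate 1 or 2 of either day, with adjusted p between 0.0563 and 0.154 by edgeR. *Fosb* was lost without replicate 1 or 2 of day 2, with 0.0735 and 0.0813.

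The other large rises came from several families. *Ltb*, a cytokine gene, was at 0.480, 0.152 and 2.18 CPM on day 2 and at 36.1, 8.54 and 9.64 CPM on day 3, the largest rise by the ranking (log2 fold change 4.27, SE 0.84, adjusted p = 0.00549, edgeR). Its day 2 level in 1 library was under 3 counts, so the fitted size depends on the fit. Rises with a smaller standard error were those of *Slc39a8*, a zinc and manganese transporter gene, from 3.92, 3.72 and 5.45 CPM to 37.3, 23 and 37.3 CPM (log2 fold change 2.90, SE 0.20, adjusted p = 4.6e-08, edgeR), and of *Plce1*, a phospholipase gene, from 2.24, 1.82 and 1.95 CPM to 11.3, 8.98 and 12.3 CPM (log2 fold change 2.43, SE 0.19, adjusted p = 5.0e-08, edgeR). *Penk* and *Trh*, which encode precursors of neuropeptides, rose by log2 values of 2.70 and 2.48. *Trh* was at 30.2, 24.7 and 27.6 CPM on day 2 and at 69.7, 145.2 and 247.3 CPM on day 3, so that its day 3 libraries were spread widely and all above day 2. *Wfdc2*, *Pdgfb*, *Gadd45b*, *Csf1* and *Cda* completed the 15 largest rises, with log2 fold changes between 2.23 and 2.38.

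Some genes were called in the same direction on every day. The largest such third-day rises were in *Kcnj3*, *Actc1*, *Nnat*, *Adamts1* and *Calcr*. *Kcnj3*, a potassium channel gene, was at 4.69, 4.94 and 4.49 CPM on day 1, at 9.91, 9.80 and 10.6 CPM on day 2 and at 32, 37.1 and 50.1 CPM on day 3, a third-day log2 fold change of 1.97 (adjusted p = 2.2e-08 by edgeR, SE 0.14). *Nnat*, an imprinted gene of the nervous system, rose by 1.67 in log2 units on the third day after 1.29 and 1.02 on the days before. *Triml2*, *P2rx7*, *AU018091*, *Laptm5* and *Gpa33* had the largest third-day falls of this kind, between -2.38 and -2.12. Other genes turned. *Dmrt1*, a regulator of germ cell fate, and *Meioc*, needed for meiotic prophase, had risen on the first and second day and fell on the third by log2 values of 2.38 and 2.0. *Meioc* was at 19.3, 16.9 and 17.9 CPM on day 1, at 25.1, 28.3 and 24.8 CPM on day 2 and at 5.97, 6.37 and 7.23 CPM on day 3. *Nupr1*, a stress-induced gene of the Atf4 response, had risen by 3.20 on the second day and fell by 1.60 on the third. On the third day 17 of 25 Atf4-response genes were not called, a share near that of all genes tested (9857 of 14382). In the other direction, *Lgals3* and *Tgm1*, genes of epithelia, had fallen by log2 values of 2.44 and 3.04 on the second day and rose by 1.89 and 1.86 on the third. Second-day and third-day changes share the day 2 libraries, so a deviation of that day enters both with opposite sign.

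Of 20 cadherin, junction and EMT genes 9 were higher and 1 lower (15.9% and 15.6% of all genes tested), with 3 higher without replicate 1 of day 2 and 5 without replicate 2 of day 2 or replicate 1 of day 3. *Cdh1*, of epithelial adherens junctions, was at 866.5, 940.0 and 969.1 CPM on day 2 and at 935.5, 974.4 and 855.6 CPM on day 3 (log2 fold change -0.01, adjusted p = 0.963, edgeR). *Cdh2*, N-cadherin of neural and mesodermal cells, rose by 0.41 and *Vim* by 0.60 in log2 units. The others called higher were *Cdh4*, *Zeb2*, *Itgb1* and the epithelial genes *Cldn6*, *Cldn7*, *Ocln* and *Crb3*. *Snai1*, *Snai2*, *Twist1*, *Zeb1* and *Fn1* were not called, so the list gave no single direction between epithelial and mesenchymal genes. The glucose transporter gene *Slc2a3* rose from 275.1, 217.8 and 280.7 CPM to 665.4, 492.9 and 675.9 CPM, a log2 fold change of 1.25 (adjusted p = 4.5e-05 by edgeR, SE 0.13). Among 20 glycolysis genes 3, including *Slc2a3*, were higher, 4 were lower and 13 were not called. The last is a share near that of all genes tested (9857 of 14382). In cholesterol synthesis 9 of 25 were higher, by log2 values between 0.19 and 0.67, with 4 higher without replicate 1 of day 2 and 3 without replicate 1 of day 3, and 0 were lower by edgeR (0 at an unadjusted p under 0.05 and 0 with DESeq2). Of 27 imprinted genes 4 were higher and 5 lower, shares near those of all genes tested, with 2 higher without replicate 2 or replicate 3 of day 3 and 3 lower without replicate 3 of day 3. Among them *Ascl2* fell by 2.10 and *Kcnq1ot1* by 1.04 in log2 units. *Hmga2*, a let-7 target, rose from 22.7, 23.9 and 22.5 CPM to 42.6, 38.0 and 44.4 CPM (log2 fold change 0.85, SE 0.09, adjusted p = 2.8e-06, edgeR).

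**Figure D5:**
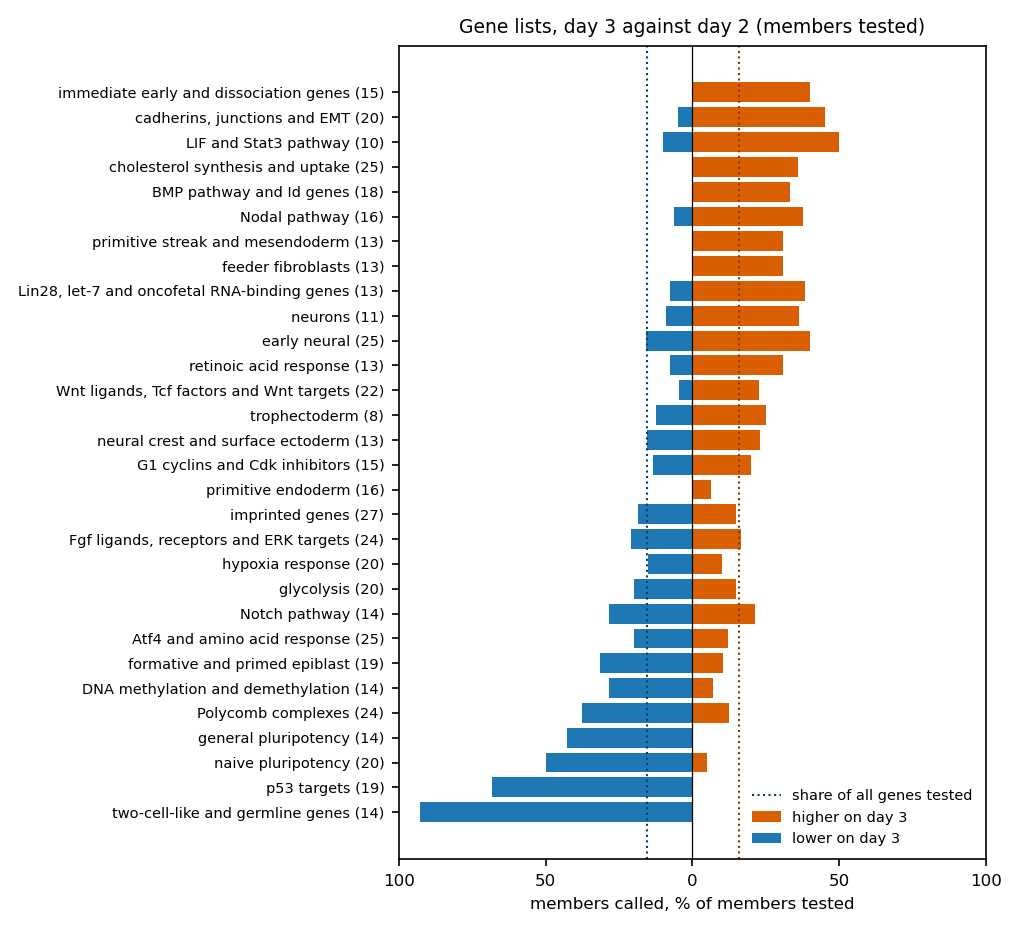
For each of 30 gene lists, the share of members tested (their number in brackets) that edgeR called higher (orange, to the right) or lower (blue, to the left) on day 3 than on day 2. Dotted lines mark the shares over all genes tested, 15.9% higher and 15.6% lower. Germline genes, p53 targets and naive genes had the largest shares of lower members.

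Markers of other cell types that the culture could hold were summed in each library. The 6 defining markers of primitive endoderm summed to between 18.1 and 21.3 CPM on day 2 and to between 16.7 and 19.6 CPM on day 3, and edgeR called 0 of them (0 at an unadjusted p under 0.05 and 0 with DESeq2). The 4 trophectoderm markers summed to at most 5.70 CPM in any of the 6 libraries, and *Elf5* was at 3 counts or fewer in all. The 6 neuronal markers summed to between 138.6 and 159.7 CPM on day 2 and to between 217.6 and 219.0 CPM on day 3. By edgeR 3 of these 6 were higher (all genes tested, 15.9%). The 6 mesendoderm markers summed to between 4.91 and 8.56 CPM on day 2 and to between 7.06 and 16.3 CPM on day 3. The 4 markers of mESCs, *Pou5f1*, *Sox2*, *Nanog* and *Zfp42*, were all detected on day 3, with *Zfp42*, at 9.64 to 12.8 CPM, far under its day 0 level of 670.9 to 752.8 CPM.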

How the data were processed

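Total RNA of mouse ESCs was sequenced, and the authors deposited a transcript table per library with estimated counts and TPM from kallisto, plus a gene table of TPM. The submitters' processing notes name kallisto 0.42.1, DESeq2 and mm10. Estimated counts were summed over the transcripts of a gene. Of 34079 transcripts 33709 were assigned by RefSeq and 196 by GENCODE, and 174 were left out. Sums were rounded to whole numbers. The 12 time-course libraries were fitted together by day in edgeR 4.0.16 under R 4.3.3, with its filter on low counts, TMM and the quasi-likelihood test, and p values were adjusted over all 14382 genes. SE is the log2 fold change divided by the root of the F statistic. Scripts were tested on simulated data.

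Genes were named by these rules: the 15 largest rises and falls among called genes with mean log2 CPM of at least 1 and days that did not overlap, the 8 largest in each direction that turned from the second day, the 5 largest in each direction that moved the same way on every day, and members of 30 gene lists. Some genes that these rules name are not reported here. Members and lists were chosen with earlier results of these data known. Alternatives were DESeq2 1.42.0, upper-quartile scaling, no filter, a minimum of 10 counts per library, a block for the replicate number, the days compared fitted alone, limma 3.58.1 on log2(TPM + 1), leaving out each of the 12 libraries, and, chosen after seeing the data, leaving out replicate 3 of day 2 and replicate 1 of day 3 together. Same-numbered libraries did not deviate together (correlations of their deviations -0.113, 0.133 and -0.0369 between day 2 and day 3), so the numbers were not taken as pairs. The authors' comparison columns, which hold fold changes and p values of DESeq2, and the 6 GFP+ libraries were not used. No replicate was a copy of another.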

Additional observations from a re-analysis of the deposited data

Results flagged for a closer look

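The change of the third day was tested against that of each earlier day in the same edgeR fit. It differed from the second-day change in 4741 genes (33.0% of those tested) and from the first-day change in 8295 genes (57.7%). The third-day and second-day changes share the day 2 libraries, so a deviation of these libraries enters the difference more than once. Where a gene had fallen on the second day and rose on the third, the difference of the log2 fold changes (the later minus the earlier day) was 4.90 for *Tgm1*, 4.75 for *Phlda1*, 4.34 for *Lgals3*, 2.83 for *Pnpla3*, 2.37 for *Atp2b4*, 2.25 for *Fgf17* and 1.73 for *Id3*. Where a gene had risen and then fell, it was -4.80 for *Nupr1*, -4.54 for *Dmrtb1*, -3.59 for *Taf7l*, -2.92 for *Tbx4*, -2.72 for *Dmrt1*, -2.71 for *Amhr2*, -2.54 for *Slc23a1* and -2.54 for *Meioc*. The genes named here were chosen for turning, so these values describe them and are no independent test.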

How the results depend on the processing

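Between day 2 and day 3, from 3877 genes (only the days compared) to 4594 (upper-quartile scaling) were called under the other settings, and from 2969 (without replicate 2 of day 2) to 5055 (without replicate 3 of day 2) with 1 library left out. With the replicate number as a block 4571 were called. The numbers were not taken as pairs, and that fit says nothing of pairing. Without both replicate 3 of day 2 and replicate 1 of day 3, 4125 were called, 3635 of them also called with all libraries. Rises made up 50.4% of the calls and 60.0% with limma on log2(TPM + 1). For the difference between the third-day and second-day change, 1954 genes were higher and 2787 lower, against 1428 and 3502 with upper-quartile scaling, and for the first-day change 4011 and 4284, against 4826 and 3343 with limma. The median of early neural genes moved from 0.10 to 0.51 with at least 10 counts in every library and to 0.54 with only the days compared, and lay between -0.02 and 0.42 with 1 library left out. With limma the medians of naive and of germline genes were -0.37 and -1.51. That of p53 targets lay between -0.46 and -0.36 with 1 library left out. The causes were not tested. Of 126 named genes called, 100 kept their call under every setting that tested them, and no named gene reversed a called direction. A gene that a setting did not test, such as *Hormad1* with at least 10 counts in every library, was not counted as lost. Depth limits statements on genes near 3 counts, such as *Gsc*, *Tcl1* and *Postn*.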

Other observations

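Gene groups outside the comparison's main results had these counts between day 2 and day 3, where 15.9% of all genes tested were higher and 15.6% lower. Of 13 Lin28 and let-7 related genes 5 were higher, and 3 without replicate 1 of day 2 or without replicate 1 of day 3. Of 10 LIF and Stat3 genes 5 were higher and 1, the receptor gene *Lifr*, was lower, and it was not called without replicate 1 of day 2 or without replicate 2 of day 3. Of 20 hypoxia genes 2 were higher and 3 lower, no larger shares than those of all genes tested, and the number of higher genes lay between 0 and 4 when single libraries of the 2 days were left out.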
